A study of Mus musculus with 4 samples.

Results

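The 36 genes of fatty acid uptake, storage and oxidation described here were chosen from a list of gene symbols drawn up by function, with earlier results of these data known, and all 36 had a probe among the 22931 features tested. They were measured in RNA from the hearts of male mice 5 days after myocardial infarction, induced by ligating the left anterior descending coronary artery in every animal. The KO hearts came from VE-Cad-Cre-S1pr1 fl/fl mice, in which a Cre recombinase driven by the endothelial VE-cadherin promoter removes the sphingosine 1-phosphate receptor gene S1pr1, and the WT hearts came from mice labelled WT. There were 2 arrays per genotype, KO replicates 3 and 4 against WT replicates 1 and 3. The labels do not give the animals' age, do not say whether the WT mice carried the floxed allele or Cre, and do not say which region of the heart was taken or whether animals were pooled. Nothing in the labels says that the 2 arrays of a genotype come from separate animals, so the p-values reflect the spread among these arrays alone, which may be technical. The question of the comparison was how the infarcted heart's expression profile differs when the endothelium lacks S1pr1.

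The heart draws most of its energy from fatty acids. They enter the cardiomyocyte through transport proteins, are coupled to coenzyme A (CoA), pass into mitochondria as carnitine esters, and are shortened there in a repeating spiral that hands electrons to the respiratory chain. Malonyl-CoA restrains their entry, pyruvate dehydrogenase kinases hold back the competing use of glucose, and surplus fatty acid is kept as triglyceride in lipid droplets. Injured and failing hearts are known for lower expression of many of these genes. Many are known targets of the nuclear receptors PPARα or ERRα and their coactivator PGC-1α.

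No fatty acid gene passed the test of KO against WT hearts, and most of these genes differed more between the WT arrays than between genotypes. Levels throughout are log2 of the processed signal with the array's 75th percentile subtracted, for the brightest probe of each gene, and differences are in log2 units, KO minus WT unless stated, with their standard errors (SE). Of the 36 genes, 33 had a higher mean in KO hearts (91.7%, against 54.8% of all features), with a median difference of 1.51 on the log2 scale, against 0.07 over all features. All 36 95% intervals held 0, and the adjusted p-values from limma (Benjamini-Hochberg over 22931 features) ran between 0.740 and 0.798. At an adjusted p under 0.05 limma called 0 of the 36 genes and 0 of all features (0%). At an unadjusted p under 0.05 it called 0 of the 36 genes and 633 of all features (2.76%). The WT pair itself was far apart, since 33 of the 36 genes were lowest on WT replicate 1 (91.7%, against 41.7% of all features). The difference WT replicate 3 minus WT replicate 1 had a median of 2.86 over the 36 genes, against a median close to 0 over all features, and for 34 of them the gap between the WT arrays, whichever way it ran, was wider than that between the genotype means. The exceptions were Cpt1a and Ucp3. The same count over all features was not made. Single arrays also differ more by noise than means of 2 arrays do, so this count alone does not set the 36 genes apart.

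Among the other 3 arrays the genes kept close to 1 order. KO replicate 3 was lower than WT replicate 3 for 34 of the 36 genes (94.4%, against 54.5% of all features), with a median difference of -0.43, against -0.03 over all features. KO replicate 4 was the highest of the 4 arrays for 32 genes (88.9%, against 45.8% of all features), with a median difference from WT replicate 3 of 0.72, against 0.15 over all features. Thus for 30 genes the KO arrays lay on either side of WT replicate 3, and the same number, 30, ran upwards through WT replicate 1, KO replicate 3, WT replicate 3 and KO replicate 4, an order shown by 22.3% of all features. Without WT replicate 1 the median KO minus WT difference of the 36 genes was 0.13, and 8 of them had a KO mean below WT replicate 3.

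**Figure D1:**
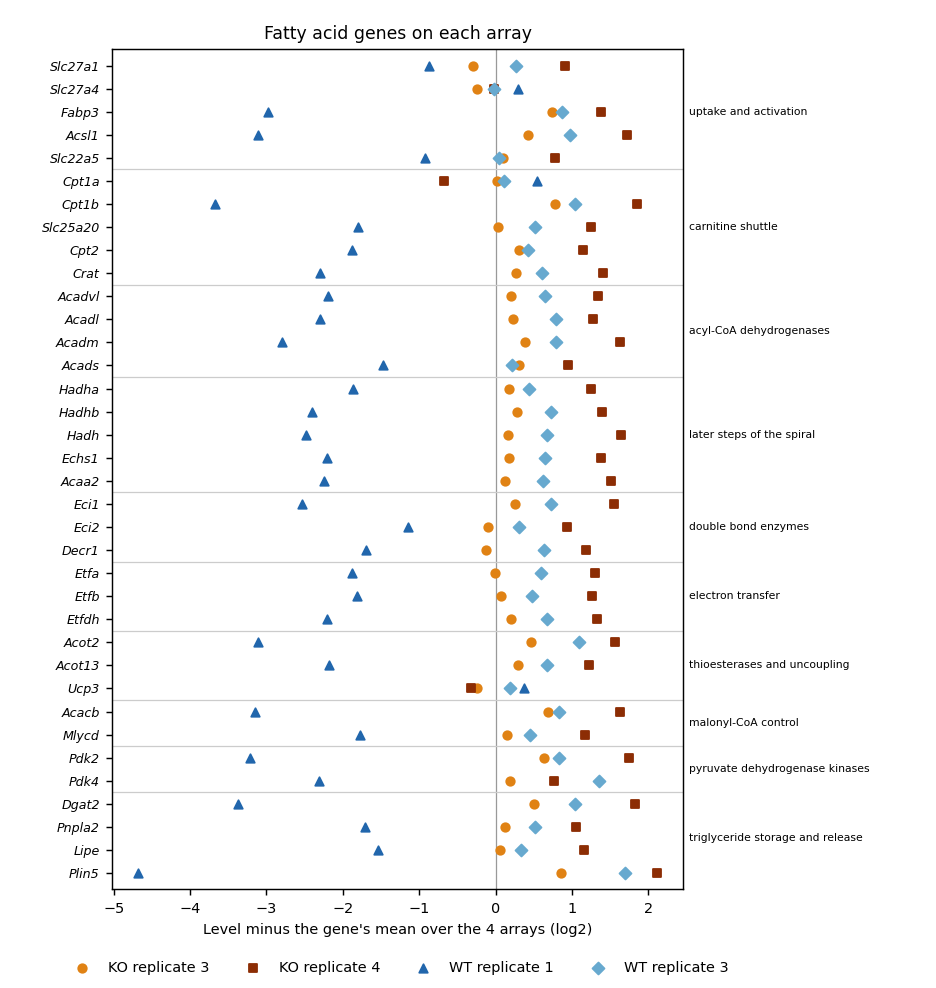
Level of each of the 36 fatty acid genes on each array, minus the gene's mean over the 4 arrays (log2), grouped by role; orange circles and brown squares are KO replicates 3 and 4, blue triangles and light blue diamonds WT replicates 1 and 3. WT replicate 1 is the leftmost point for 33 genes, and KO replicate 4 the rightmost for 32.

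The arrays differed in more than these genes. The probe for S1pr1, the targeted gene, was well above background on all 4 arrays, at -2.69 and -2.30 in KO hearts and 0.43 and 0.95 in WT hearts, lower in both KO hearts by 3.19 ± 0.38 (SE) with an adjusted p of 0.740 in limma. Whether that probe lies in the deleted part of the gene is not given in the sources used here. WT replicate 1 had 55.4% of its spots well above background, against 74.0% and 72.1% on KO replicates 3 and 4 and 69.9% on WT replicate 3. Its 75th percentile of signal was the highest, at 1112, against 942 and 617 on the KO arrays and 855 on WT replicate 3. The standard deviation of its negative controls was 6.79, against 1.46 and 1.17 on the KO arrays and 1.68 on WT replicate 3. All 16 cardiomyocyte markers were measured, and all 16 were lowest on WT replicate 1 and highest on KO replicate 4, with mean levels of 6.05 and 6.85 in KO hearts and 2.07 and 6.25 in WT replicates 1 and 3. The 14 macrophage markers measured of 15 were all lower on average in KO hearts, with mean levels of 2.14 and 0.73 in KO hearts and 3.24 and 2.30 in WT hearts. Adipocyte markers, 6 measured of 8, had mean levels of -2.24 and -3.82 in KO hearts and -0.12 and -3.83 in WT hearts. WT replicate 1 thus had the least cardiomyocyte signal and the most macrophage and adipocyte signal of the 4 arrays. Endothelial markers (11 of 11 measured) had mean levels of 2.35 and 2.33 in KO hearts and 1.76 and 2.16 in WT hearts, and fibroblast markers (10 of 10) had 4.46 and 3.46 in KO hearts and 4.03 and 4.12 in WT hearts. Skeletal muscle markers (5 of 9 tested) had -2.00 and -2.90 in KO hearts and -2.48 and -2.20 in WT hearts. The part of cell makeup, and of signal over background on WT replicate 1, in the fatty acid genes' differences was not tested. In bulk tissue, fewer cells of a type and less RNA per cell cannot be told apart. All 4 arrays lay on 1 slide with each genotype on neighbouring positions, so position and genotype cannot be told apart.

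**Figure D2:**
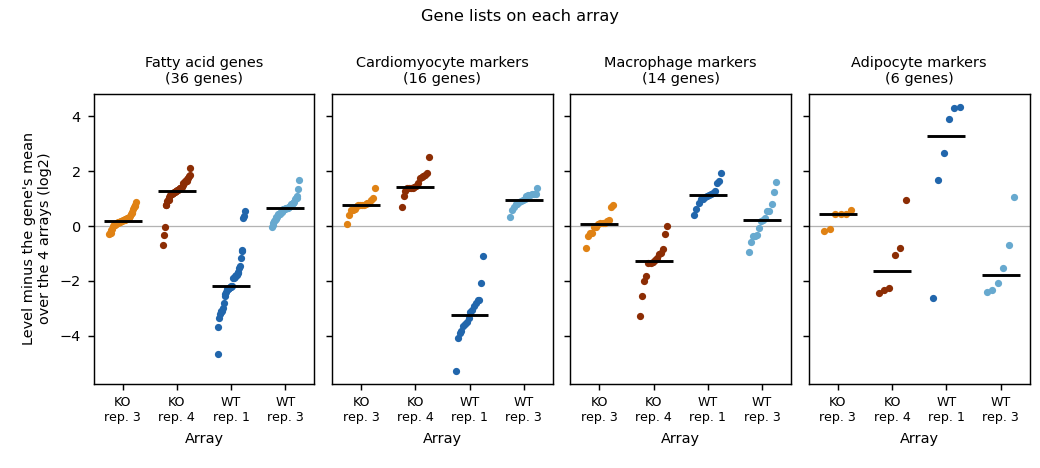
Each point is 1 gene on 1 array, as its level minus the gene's mean over the 4 arrays (log2), for the 36 fatty acid genes and for markers of cardiomyocytes (16), macrophages (14) and adipocytes (6); black bars are medians of the genes. On WT replicate 1 the fatty acid genes and the cardiomyocyte markers sit low, while the macrophage markers and 5 of the 6 adipocyte markers sit high.

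Since many of these genes are known targets of PPARα or ERRα, promoters of some genes that followed the main array order and of some whose brighter probe did not are shown here. RefSeq promoter windows (GRCm38.p6, 300 bases that run across a transcription start) were at hand for 30 of the 36 genes, as 36 windows. The hexamer AGGTCA, the core that these receptors bind, was in 8 of the 36 windows on either strand (22.2%), those of 7 genes, Acacb, Acadm, Acadvl, Cpt1a, Echs1, Plin5 and Ucp3, and in 16.3% of all 32851 windows. A pair of these hexamers in 1 direction with 1 base between, the arrangement bound by PPAR with its partner RXR, was in 0 of these 36 windows and in 0.0396% of all. With up to 1 mismatch the figures were 0 and 0.554%, and for TCAAGGTCA, which contains the hexamer and is bound by ERR receptors, they were 0 and 0.423%. Such matches are letters in a short window and say nothing of binding. Shown are Acadm and Plin5, both lowest on WT replicate 1, then Cpt1a and Ucp3, both highest there on the brighter probe, with AGGTCA or its reverse complement TGACCT in capitals. The windows are at chr3:153944594-153944893 (minus strand, Acadm), chr17:56117499-56117798 (minus strand, Plin5), chr19:3323051-3323350 (plus strand, Cpt1a) and chr7:100472741-100473040 (plus strand, Ucp3).
Acadm: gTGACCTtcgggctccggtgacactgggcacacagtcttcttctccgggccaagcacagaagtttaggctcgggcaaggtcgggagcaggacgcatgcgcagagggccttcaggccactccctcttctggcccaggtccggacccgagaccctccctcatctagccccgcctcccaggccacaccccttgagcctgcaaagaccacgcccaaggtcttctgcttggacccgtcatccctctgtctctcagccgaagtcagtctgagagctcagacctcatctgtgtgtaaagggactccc
Plin5: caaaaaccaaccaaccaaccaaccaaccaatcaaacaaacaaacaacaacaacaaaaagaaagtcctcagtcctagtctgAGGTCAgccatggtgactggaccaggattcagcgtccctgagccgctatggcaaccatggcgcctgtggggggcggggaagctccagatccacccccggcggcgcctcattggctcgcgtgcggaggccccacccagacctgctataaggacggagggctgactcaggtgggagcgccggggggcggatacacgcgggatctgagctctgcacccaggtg
Cpt1a: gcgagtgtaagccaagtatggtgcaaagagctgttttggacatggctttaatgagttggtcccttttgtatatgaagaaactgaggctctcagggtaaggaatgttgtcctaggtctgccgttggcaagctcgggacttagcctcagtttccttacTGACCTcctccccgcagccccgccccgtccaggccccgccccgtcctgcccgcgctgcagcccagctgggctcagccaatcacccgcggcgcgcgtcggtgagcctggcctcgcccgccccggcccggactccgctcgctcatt
Ucp3: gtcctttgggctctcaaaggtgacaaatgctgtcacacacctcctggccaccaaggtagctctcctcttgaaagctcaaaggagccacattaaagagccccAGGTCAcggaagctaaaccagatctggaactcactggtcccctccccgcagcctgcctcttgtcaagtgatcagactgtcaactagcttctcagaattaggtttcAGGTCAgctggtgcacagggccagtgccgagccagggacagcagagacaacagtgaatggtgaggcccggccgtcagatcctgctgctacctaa
The Acadm and Cpt1a windows hold 1 match each on the reverse strand, that of Plin5 has 1 on the gene's own strand, and that of Ucp3 has 2. The pattern of Cpt1a and Ucp3 is that of their brighter probes; the second probe of each was lowest on WT replicate 1, so these windows cannot be sorted firmly by array pattern.

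Uptake and activation were represented by 5 genes, of which 4 had higher means in KO hearts (median difference 0.87). Fabp3, the heart-type fatty acid binding protein that carries fatty acids through the cytosol, was at 6.94 and 7.58 in KO hearts, against 3.22 and 7.08 in WT hearts. Acsl1, the main cardiac enzyme that couples long-chain fatty acids to CoA, was at 4.49 and 5.79 in KO hearts, against 0.95 and 5.05 in WT hearts. In both genes WT replicate 1 was alone at the low end, WT replicate 3 lay between the KO arrays, and the KO minus WT differences of 2.11 ± 1.36 and 2.14 ± 1.48 (SE) were less than the gap between the WT arrays. The plasma membrane transporters varied less from array to array. Slc27a1 (FATP1), which moves fatty acids in and activates them, was at -0.52 and 0.68 in KO hearts and -1.10 and 0.04 in WT hearts, a difference of 0.61 ± 0.64. Slc27a4 (FATP4), a transporter of the same family, was at -2.52 and -2.30 in KO hearts and -1.98 and -2.30 in WT hearts. Its arrays spanned little, KO replicate 4 lay below WT replicate 3 by less than these decimals show, and its difference was -0.27 ± 0.33. Slc22a5 (OCTN2), which brings carnitine into the cell, was at -1.22 and -0.55 in KO hearts and -2.24 and -1.27 in WT hearts. Both KO arrays stood above both WT arrays here, but KO replicate 3 and WT replicate 3 were close together, and the difference was 0.87 ± 0.50. Slc22a5 and Acads were the 2 of 36 genes with no overlap in this direction (5.56%, against 18.3% of all features), and Slc27a4, Cpt1a and Ucp3 the 3 in the other (8.33%, against 16.1%). Both shares were below those of all features.

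In the carnitine shuttle, carnitine palmitoyltransferase 1 is the enzyme that commits fatty acids to mitochondria. On their brighter probes its liver and muscle forms went separate ways across the arrays, which the second Cpt1a probe did not repeat. Cpt1b, the muscle form and the main one of the adult heart, was at 3.86 and 4.94 in KO hearts, against -0.59 and 4.12 in WT hearts. Cpt1a, the liver form, was at 0.97 and 0.27 in KO hearts, against 1.49 and 1.06 in WT hearts. Cpt1b was thus lowest and Cpt1a highest on WT replicate 1, and the reverse held on KO replicate 4. The KO minus WT differences were 2.63 ± 1.66 for Cpt1b and -0.65 ± 0.41 (SE) for Cpt1a. The downstream genes resembled Cpt1b. Slc25a20, the carrier that exchanges acylcarnitine for carnitine across the inner membrane, was at 0.25 and 1.47 in KO hearts and -1.59 and 0.73 in WT hearts. Cpt2, which returns the acyl group to CoA inside, was at 3.49 and 4.33 in KO hearts and 1.30 and 3.61 in WT hearts. For Crat, carnitine acetyltransferase, which buffers acetyl-CoA by moving acetyl groups to carnitine, the values were -2.51 and -1.38 in KO hearts and -5.08 and -2.17 in WT hearts. The Crat probe was not well above background on WT replicate 1, so that value carries only a bound. The difference was 1.29 ± 0.94 for Slc25a20 and 1.46 ± 0.88 for Cpt2, and at least 1.34 for Crat, with WT replicate 1 set at the lowest level well above background on that array (-4.39).

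A second probe was on the arrays for 9 of the 36 genes. For Cpt1b both probes gave 1 picture: the dimmer one was at 0.81 and 1.77 in KO hearts and -3.27 and 1.02 in WT hearts. For Cpt1a the dimmer probe did not show what the brighter one did, with -3.56 and -3.44 in KO hearts and -3.73 and -3.28 in WT hearts and a difference of 0.01. The probes of Ucp3, which codes for a mitochondrial carrier named uncoupling protein 3, disagreed in direction. Its brighter probe was at -1.39 and -1.47 in KO hearts and -0.76 and -0.95 in WT hearts, a difference of -0.57 ± 0.31 with no overlap of genotypes. Its dimmer probe was at -3.83 and -2.55 in KO hearts and -6.66 and -2.22 in WT hearts, was well above background on 3 arrays only, and had its lowest value on WT replicate 1 as most of the other genes did. The mean of both Ucp3 probes gave a KO minus WT difference of 0.34. In the other 6 genes with 2 probes (Fabp3, Acsl1, Cpt2, Decr1, Etfa and Acacb) WT replicate 1 was the lowest array on both. Of the 3 genes that were lower in KO hearts with no overlap, then, Slc27a4 had a single probe and the other two had a second probe that did not repeat it.

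**Figure D3:**
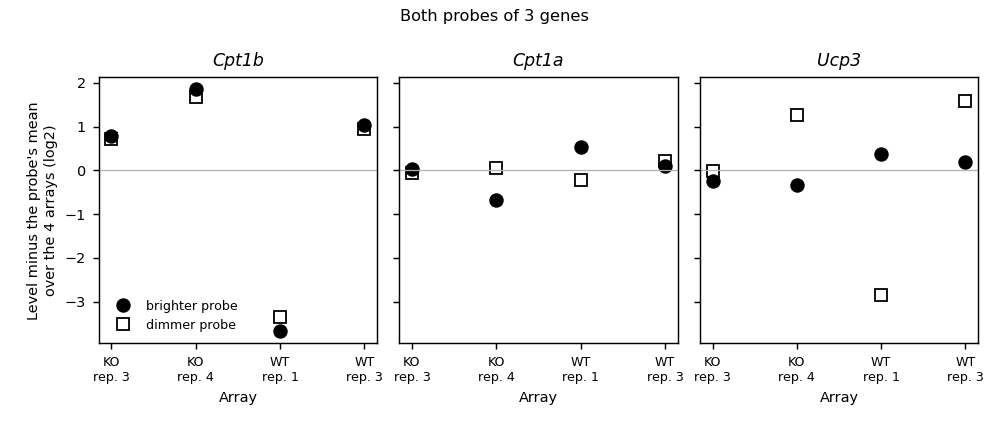
Levels of the brighter (filled circle) and dimmer (open square) probe of Cpt1b, Cpt1a and Ucp3 on each array, each minus its own mean over the 4 arrays (log2). The Cpt1b probes overlie each other, while those of Cpt1a part most on WT replicate 1 and KO replicate 4, and those of Ucp3 on every array but KO replicate 3.

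The first step of each turn of the spiral is made by acyl-CoA dehydrogenases that differ in the chain length they take. Acadvl, for very long chains, was at 5.82 and 6.95 in KO hearts and 3.42 and 6.26 in WT hearts. Acadl, for long chains, was at 4.42 and 5.47 in KO hearts and 1.90 and 4.99 in WT hearts. Acadm, for medium chains, was at 4.59 and 5.84 in KO hearts and 1.40 and 4.99 in WT hearts. All of them put WT replicate 1 far below the rest and KO replicate 4 on top. Acads, for short chains, was at -0.79 and -0.15 in KO hearts and -2.57 and -0.88 in WT hearts, and here KO replicate 3 was just above WT replicate 3, so that the genotypes did not overlap. The KO minus WT differences were 1.55 ± 1.08 for Acadvl, 1.50 ± 1.15 for Acadl, 2.02 ± 1.32 for Acadm and 1.26 ± 0.68 (SE) for Acads. Without WT replicate 1 the Acadl difference was -0.04.

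The later steps of the spiral ran close together, with differences of 1.43 to 1.81 and all 5 genes in the order WT replicate 1, KO replicate 3, WT replicate 3, KO replicate 4. Hadha and Hadhb, the subunits of the trifunctional protein that carries out the remaining steps on long chains, are neighbours on mouse chromosome 5 whose RefSeq promoter windows overlap head to head, at chr5:30154931-30155230 (minus strand, Hadha) and chr5:30155003-30155302 (plus strand, Hadhb). Hadha was at 0.42 and 1.49 in KO hearts and -1.63 and 0.68 in WT hearts. Hadhb was at 6.05 and 7.16 in KO hearts and 3.37 and 6.50 in WT hearts. Their differences, 1.43 ± 0.91 and 1.67 ± 1.16, were close to each other. Hadh, the short-chain hydroxyacyl-CoA dehydrogenase, was at 2.78 and 4.27 in KO hearts and 0.14 and 3.29 in WT hearts. Echs1, the short-chain enoyl-CoA hydratase, was at 4.04 and 5.24 in KO hearts and 1.64 and 4.51 in WT hearts. Acaa2, the thiolase that releases acetyl-CoA, was at 5.77 and 7.17 in KO hearts and 3.41 and 6.27 in WT hearts. Every 1 of these 5 genes separated the WT arrays by more than 2 log2 units (2.31 to 3.15) and the KO arrays by a smaller amount.

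Enzymes that deal with double bonds in unsaturated fatty acids had differences that overlapped within their SEs. Eci1, the mitochondrial enoyl-CoA isomerase, was at 3.61 and 4.91 in KO hearts and 0.83 and 4.09 in WT hearts, a difference of 1.81 ± 1.23. Eci2, an isomerase also found in peroxisomes, was at 4.23 and 5.27 in KO hearts and 3.18 and 4.65 in WT hearts, a difference of 0.84 ± 0.68. Decr1, the dienoyl-CoA reductase, was at 3.88 and 5.20 in KO hearts and 2.31 and 4.64 in WT hearts, a difference of 1.06 ± 0.95 (SE) that was -0.10 without WT replicate 1. On the probes used, the gap between the WT arrays was widest for Eci1 (3.26) and narrowest for Eci2 (1.46). WT replicate 1 was the lowest array for each of them. The dimmer Decr1 probe was at 0.75 and 2.13 in KO hearts and -2.15 and 1.15 in WT hearts, a difference of 1.94. The place of Decr1 in that ranking thus depends on the probe. Etfa and Etfb, the subunits of the flavoprotein that collects electrons from the acyl-CoA dehydrogenases, and Etfdh, which passes them to ubiquinone, had differences of 1.29 ± 0.99, 1.34 ± 0.93 and 1.53 ± 1.09. Etfdh, for instance, was at 5.05 and 6.18 in KO hearts and 2.64 and 5.53 in WT hearts, with WT replicate 1 alone at the bottom, and the subunits followed the same array order. The thioesterases, which split acyl-CoA back to fatty acid, did likewise. Acot13 was at 5.79 and 6.72 in KO hearts and 3.32 and 6.17 in WT hearts, a difference of 1.51 ± 1.06. Acot2, the mitochondrial form, was at -2.91 and -1.80 in KO hearts and -6.48 and -2.28 in WT hearts. That probe was not well above background on WT replicate 1, and with the same bound there the difference was at least 0.98, against -0.08 without WT replicate 1. Its close paralog Acot1, whose sequence is nearly identical, was at -0.31 and 1.33 in KO hearts and 0.21 and 0.89 in WT hearts, and how far either probe reads both genes is uncertain.

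The genes that set the choice of fuel also separated the WT arrays. Acacb (ACC2), which makes the malonyl-CoA that inhibits carnitine palmitoyltransferase 1 at mitochondria, was at 3.63 and 4.57 in KO hearts, against -0.20 and 3.78 in WT hearts, a difference of 2.31 ± 1.42. Mlycd, malonyl-CoA decarboxylase, which removes it, was at 2.76 and 3.79 in KO hearts, against 0.85 and 3.07 in WT hearts, a difference of 1.32 ± 0.88. The maker and the remover of malonyl-CoA thus ran through the arrays in the same order. Pdk2 and Pdk4 code for kinases that switch off pyruvate dehydrogenase and so spare glucose. Pdk2 was at 1.51 and 2.62 in KO hearts and -2.33 and 1.71 in WT hearts, a difference of 2.37 ± 1.45. Pdk4, a gene known to respond to fasting and to PPARs, was at 3.47 and 4.04 in KO hearts and 0.97 and 4.63 in WT hearts. Of the 33 genes lowest on WT replicate 1, Pdk4 was the only one not highest on KO replicate 4: WT replicate 3 held its highest value. Its difference was 0.96 ± 1.29 (SE) with all 4 arrays and -0.88 without WT replicate 1.

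Triglyceride storage and release held the gene with the widest gap between the WT arrays. Plin5, a lipid droplet coat protein of oxidative tissues that tethers droplets to mitochondria, was at 2.60 and 3.86 in KO hearts, against -2.94 and 3.44 in WT hearts. WT replicate 3 minus WT replicate 1 was 6.38, and the KO minus WT difference of 2.98 ± 2.22 (SE) became -0.21 without WT replicate 1. Dgat2, which makes triglyceride from diglyceride, was at 4.97 and 6.28 in KO hearts, against 1.09 and 5.50 in WT hearts, a difference of 2.33 ± 1.58. Pnpla2 (ATGL), the first lipase of triglyceride breakdown, was at 4.32 and 5.24 in KO hearts and 2.48 and 4.71 in WT hearts, a difference of 1.19 ± 0.87. Lipe, the hormone-sensitive lipase, was at -3.51 and -2.41 in KO hearts and -5.10 and -3.23 in WT hearts, and was not well above background on WT replicate 1, which gives a difference of at least 0.85 with the bound used for Crat. Adipocytes also express Dgat2, Pnpla2 and Lipe, and 5 of the 6 adipocyte markers measured ran the other way across the WT arrays. Adipoq, the adipocyte hormone adiponectin, was at -2.39 and -5.08 in KO hearts and 1.07 and -4.89 in WT hearts. Cfd, the adipocyte protease adipsin, was at -0.33 and -3.09 in KO hearts and 3.57 and -3.17 in WT hearts. Cidea, which codes for a lipid droplet protein, was the exception, at 2.82 and 3.18 in KO hearts and -0.41 and 3.28 in WT hearts. WT replicate 1 had the most adipocyte marker signal and the lowest Dgat2, Pnpla2 and Lipe, with Lipe not well above background there. The part of adipocytes in the signal of these genes was not tested.

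**Figure D4:**
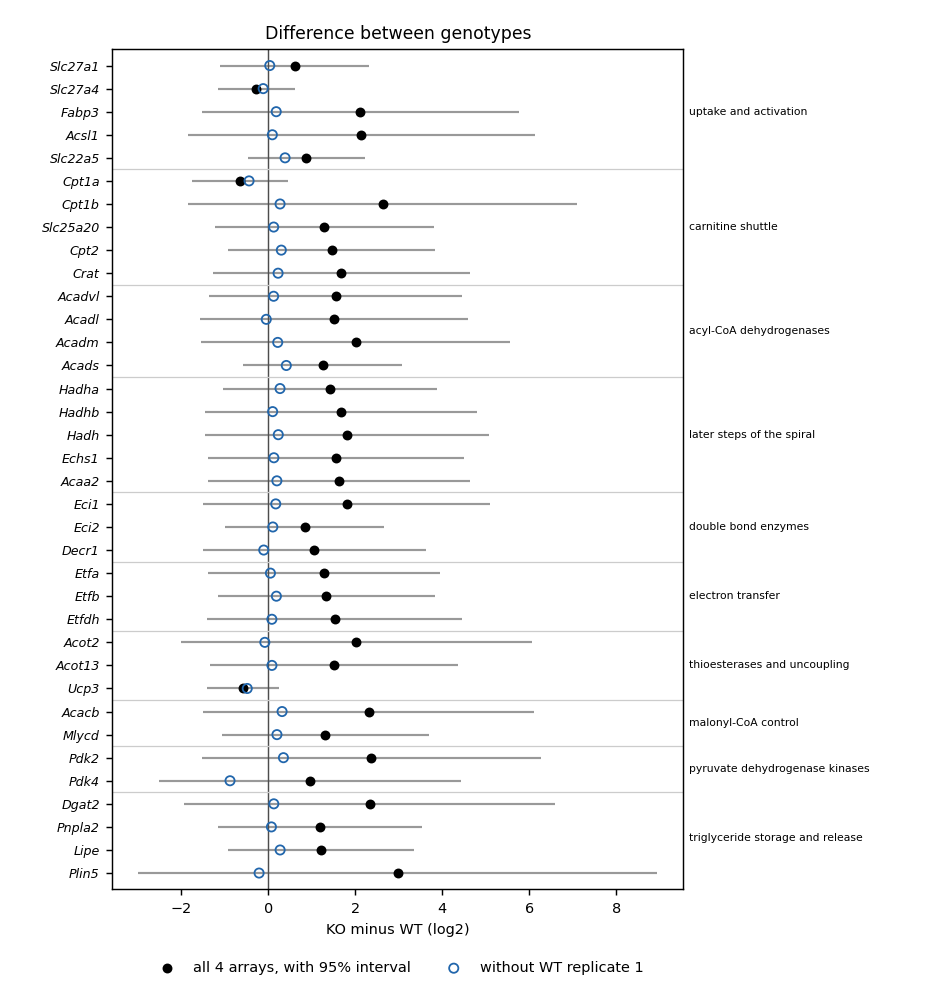
KO minus WT difference of each fatty acid gene (log2), by role: filled points use all 4 arrays with 95% intervals from limma, and open circles leave out WT replicate 1. All 36 intervals cross 0, and the open circles lie between -0.88 and 0.42.

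To set these genes against cardiomyocyte content, the mean of the 16 cardiomyocyte markers was subtracted on each array. That scaling moves every gene, and the median KO minus WT difference of all features was -2.22 on it, against 0.07 before, so only differences from that shift can be read. Over KO replicates 3 and 4 and WT replicate 3 the fatty acid genes then drew together: the median range of a gene over these 3 arrays was 0.38, against 1.11 before, while that of all features was 0.75, against 0.55 before. For 26 of the 36 genes the 3 arrays were within 0.5 log2 units, as they were for 28.2% of all features. Fabp3, for example, was at 0.90 and 0.73 in KO hearts, against 1.15 and 0.83 in WT hearts, all 4 arrays being close together. Cpt1a, Pdk4 and Ucp3 had the widest ranges over the 3 arrays on this scale, at 1.51, 1.19 and 1.12. Pdk4 was at -2.58 and -2.81 in KO hearts and -1.10 and -1.62 in WT hearts, and its KO minus WT difference of -1.33 was smaller in size than the shift of all features.

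On WT replicate 1 the same scaling lifted nearly every gene, and 99.2% of all features and 32 of the 36 genes were higher relative to the markers there than on WT replicate 3. The lift, WT replicate 1 minus WT replicate 3, had a median of 1.32 over the 36 genes, against 4.18 over all features. The cardiomyocyte markers differed between the WT arrays by a median of 4.28 (1.41 to 6.66), and the fatty acid genes by a median of 2.86. Cpt1b, Dgat2 and Plin5 were lower relative to the markers on WT replicate 1. Acot2, Crat and Lipe were not well above background there, so no firm direction can be read for them. Crat and Lipe are nonetheless counted among the 32. Means were higher in KO hearts for 5 genes on this scale (13.9%, against 1.02% of all features). They were Cpt1b (0.34), Acacb (0.02), Pdk2 (0.09), Dgat2 (0.04) and Plin5 (0.69). Such a sign says only that a gene's KO minus WT difference exceeded that of the marker mean. The SE was 2.20 for each of the 36 genes, since limma's eBayes gave them a common variance on this scale, whatever a gene's own spread. That limma called 0 of the 36 on this scale therefore decides nothing. Cpt1b was at -2.19 and -1.91 in KO hearts and -2.66 and -2.12 in WT hearts relative to the markers.

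**Figure D5:**
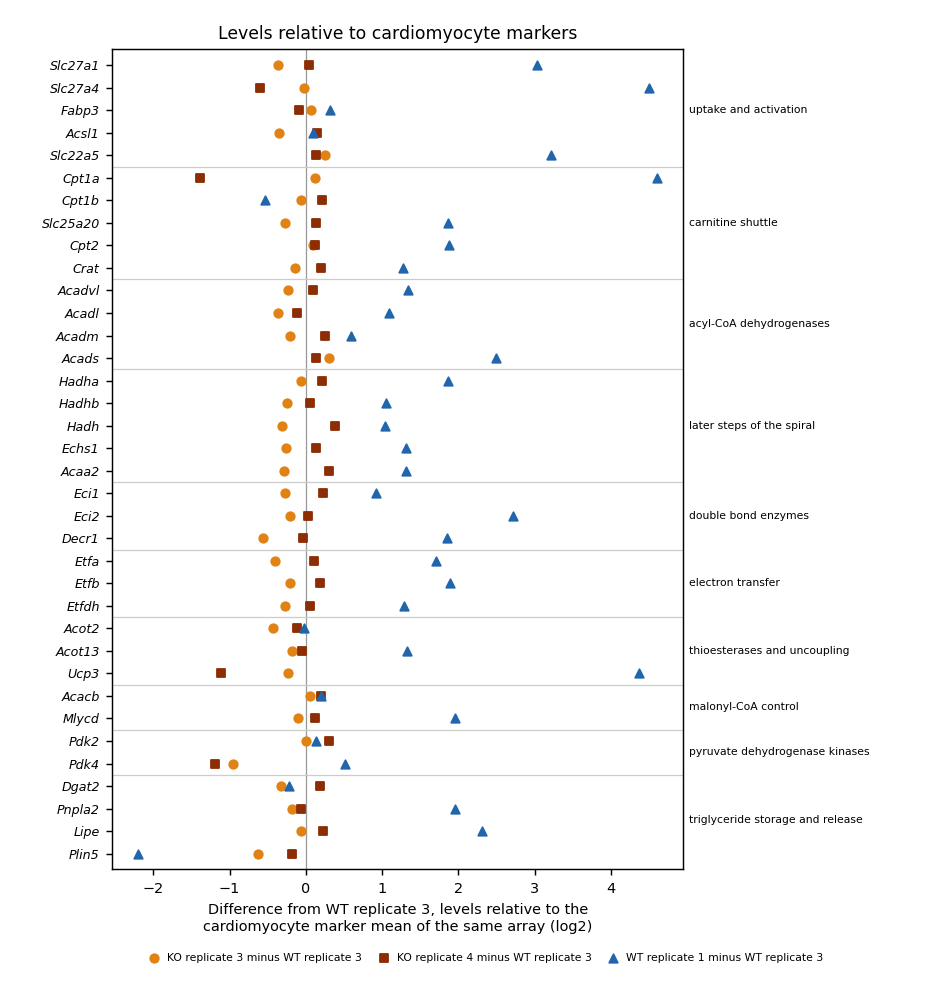
Difference of KO replicate 3 (orange circles), KO replicate 4 (brown squares) and WT replicate 1 (blue triangles) from WT replicate 3, in levels relative to the mean of 16 cardiomyocyte markers on the same array (log2). Most KO points lie within 0.5 of WT replicate 3, the farthest being those of KO replicate 4 for Cpt1a, Pdk4 and Ucp3. WT replicate 1 is above WT replicate 3 for 32 of the 36 genes, as for 99.2% of all features. The 32 include Crat and Lipe, which were not well above background on WT replicate 1.

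Of 62 further fatty acid genes outside these 36, 61 passed the filter on dim probes, with 44 higher and 17 lower on average in KO hearts (median difference 0.46) and 0 called by limma. WT replicate 1 was the lowest array for 41 of them and KO replicate 4 the highest for 41, smaller shares than among the 36 genes. Of all features, 54.8% were higher on average in KO hearts, 41.7% were lowest on WT replicate 1 and 45.8% highest on KO replicate 4. Of the 6 with the smallest p-values, 4 were lower in KO hearts, and these are genes also known from cells other than cardiomyocytes. Plin2, the ubiquitous lipid droplet coat, was at 2.56 and 1.54 in KO hearts and 3.97 and 3.06 in WT hearts, a difference of -1.47 ± 0.55. Fabp5, a fatty acid binding protein of macrophages and endothelium, was at 4.52 and 3.38 in KO hearts and 5.34 and 4.94 in WT hearts, a difference of -1.19 ± 0.51. In both genes the KO arrays lay below the WT arrays without overlap, as for 8 of the 61 further genes and 16.1% of all features. Both were lowest on KO replicate 4, as were 11 of 14 macrophage markers, 12 of the 61 further genes and 6331 of the 22931 features. The part of macrophages in the signal of these genes was not tested. The other lower genes were Slc27a3, of the FATP family (-1.72 ± 0.78), and the kinase gene Pdk3 (-1.06 ± 0.48). Gpam, which starts glycerolipid synthesis, was at -1.68 and -1.21 in KO hearts and -3.88 and -1.95 in WT hearts, a difference of 1.47 ± 0.74, and Acad12, of the acyl-CoA dehydrogenase family, differed by 1.91 ± 0.91. Cd36, the fatty acid translocase of cardiomyocytes and endothelium, was at 4.27 and 5.36 in KO hearts, against 2.07 and 4.91 in WT hearts, a difference of 1.32 ± 1.07. Every 1 of these 7 genes had an adjusted p of 0.740 or more in limma.

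Of the 16 regulators measured, 15 were higher on average in KO hearts, as were 54.8% of all features. WT replicate 1 was lowest for 12 of them, as for 41.7% of all features, and 0 were called by limma. Differences were small for Ppard (0.04), Nrip1 (0.05), Rxra (0.10) and Rxrb (0.14), and Nrf1 was lower in KO hearts (-0.19). Nrip1 and Nrf1 were highest on WT replicate 1. Ppara, the nuclear receptor PPARα, was at 1.95 and 3.64 in KO hearts, against -2.66 and 2.39 in WT hearts, a difference of 2.93 ± 1.83. Ppargc1a, which codes for PGC-1α, was at 2.79 and 4.50 in KO hearts, against -2.45 and 3.02 in WT hearts, a difference of 3.36 ± 1.96. Esrra, the receptor ERRα, varied less, at 4.07 and 4.99 in KO hearts and 2.60 and 4.33 in WT hearts, a difference of 1.06 ± 0.73 (SE). All 3 had the array order of most fatty acid enzymes, with WT replicate 1 lowest and KO replicate 4 highest.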

How the data were processed

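RNA of 4 infarcted mouse hearts was read on Agilent 1-colour arrays (Cy3), per the labels' protocols. Analysis began from the processed intensity of each spot, which per the file headers had its background subtracted and spatial trend removed array by array. Those headers name Feature Extraction 11.0.1.1, and the submitters' processing notes Agilent Feature Extraction 9.1. Flags for spots well above background, saturated or outlying are other values, used as deposited. A deposited table of log2 values, with a median of 6.116 in every column, served as an alternative.

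Control and outlier spots were left out, spots of 1 probe averaged, and log2 intensities scaled by subtracting each array's 75th percentile. There were 0 saturated spots. The filter kept a probe flagged well above background on 2 or more of the 4 arrays, and each gene took its brightest probe. RefSeq accessions gave 27234 of the 39429 probes a symbol (GRCm38.p6 table, also the source of promoters), 0 had several symbols and 12195 none. All 36 genes passed the filter, 33 of them well above background on all 4 arrays. KO was compared with WT in limma 3.58.1 (R 4.3.3, lmFit and eBayes, two-sided, Benjamini-Hochberg over 22931 features, threshold 0.05). The fit was tested on simulated data. With 2 arrays per genotype, the number of arrays limits precision. The 36 genes, all lists and the rule for named genes (all 36, S1pr1, the 6 further fatty acid genes of smallest p with Cd36, and 3 regulators) were chosen with earlier results of these data known. Alternatives changed the scaling, background correction, filter, probe choice, variance model and arrays used.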

Additional observations from a re-analysis of the deposited data

How the results depend on the processing

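Under each alternative that limma could test (all but the arrays numbered 3, 1 against 1), it called 0 features and 0 of the 36 genes at an adjusted p under 0.05. Relative to the cardiomyocyte markers the 0 calls decide nothing. The SE there was 2.20 for each of the 36 genes, since limma's eBayes gave them a common variance, whatever a gene's own spread. The lowest adjusted p among the 36 genes was 0.133, without WT replicate 3, where WT replicate 1 stands alone, the spread comes from the KO pair and is assumed for WT too, and 30 of them had an unadjusted p under 0.05, against 18.5% of all features. The median KO minus WT difference of the 36 genes stayed between 1.37 and 1.52 under median scaling, quantile normalization, normexp on median signals (chosen after seeing the data, since the planned mean signal is not among the columns used here and that alternative was not run), the deposited values, no filter, a filter on all 4 arrays (33 genes), the mean of a gene's probes, and eBayes with trend and robust. Leaving out 1 array gave medians of 0.13 to 2.95, with 28 to 33 genes higher in KO hearts: 0.13 without WT replicate 1, 2.95 without WT replicate 3, 2.0 without KO replicate 3 and 0.97 without KO replicate 4. The ranges over these were -0.043 to 3.05 for Acadl, -0.10 to 2.23 for Decr1, -0.076 to 4.13 for Acot2, -0.88 to 2.79 for Pdk4 and -0.21 to 6.17 for Plin5, each with its lowest value without WT replicate 1. The mean of both Ucp3 probes was 0.34. On the arrays numbered 3 alone, 2 genes were higher in KO and the median was -0.43. No paired analysis was possible because the genotypes share only the number 3.

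Relative to the cardiomyocyte markers, 5 genes were higher in KO and the median was -0.78, on a scale that puts the median of all features at -2.22. The difference turned negative on it for 28 genes: Slc27a1 (-1.68), Fabp3 (-0.17), Acsl1 (-0.15), Slc22a5 (-1.41), Slc25a20 (-1.0), Cpt2 (-0.83), Crat (-0.61), Acadvl (-0.74), Acadl (-0.78), Acadm (-0.27), Acads (-1.03), Hadha (-0.86), Hadhb (-0.62), Hadh (-0.48), Echs1 (-0.72), Acaa2 (-0.66), Eci1 (-0.48), Eci2 (-1.45), Decr1 (-1.23), Etfa (-1.0), Etfb (-0.95), Etfdh (-0.76), Acot2 (-0.26), Acot13 (-0.78), Mlycd (-0.97), Pdk4 (-1.33), Pnpla2 (-1.10) and Lipe (-1.08). That scaling subtracts markers with a median KO minus WT difference of 2.22. Signal over background limits the dim probes of Crat, Acot2 and Lipe on WT replicate 1: set there at -4.39, the lowest level well above background (chosen after seeing the data), their differences were 1.34, 0.98 and 0.85.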
